A study of Mus musculus with 6 samples.

Results

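Colonic mucosa of Foxo4 knockout (Foxo4_KO) mice was set against that of wild-type (WT) mice on 6 Illumina bead arrays, 3 for each genotype, which are all 6 arrays of the series. Each array held RNA pooled from the colon mucosa of 5 FVB/N6 mice aged 8 weeks. The Foxo4_KO pools came from mice left untreated, mice given an enema of 50% ethanol, and mice given trinitrobenzenesulfonic acid (TNBS, labelled 250 mg) in 50% ethanol, a hapten used to provoke colitis, and the WT pools came from mice under the same 3 conditions. Tissue was taken 2 days after the enemas. Not given in the sources used here are the knockout allele, the sex of the mice and whether WT mice were littermates. There was 1 pool per genotype and treatment, so the comparison was made within each treatment, Foxo4_KO minus WT, and the 3 matched pairs shared no pool. Differences between mice inside a pool were not measured, and the 3 treatments stood in for replicates of a genotype.

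Foxo4 encodes a forkhead transcription factor that insulin and growth factor signalling drive out of the nucleus through the kinase AKT. FoxO factors act on genes of the cell cycle, stress resistance and metabolism, and FOXO4 has also been described as a restraint on NF-κB, a factor that turns on inflammatory genes. Interferons are cytokines that switch on antiviral and antigen-presentation genes through STAT and IRF factors, many of which bind a promoter element called the interferon-stimulated response element.

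Of 17698 genes with a probe, 6636 (37.5%) were detected on all 6 arrays at a detection p under 0.01, and only these were compared. A gene below detection in 1 genotype is therefore not among them. Genes just above background in 1 genotype were kept, Ifit2 and Oas2 in WT pools among them, and the floor limits the size of their differences. Values of 3 pools are given throughout in the order untreated, ethanol, TNBS. Mean signal was 230, 227 and 277 in Foxo4_KO pools and 236, 225 and 237 in WT pools. The Foxo4_KO TNBS array stood apart, with correlations of 0.958 to 0.977 with the other 5 arrays, which correlated with each other at 0.979 to 0.991. Foxo4 itself stayed at background on all 6 arrays, with log2 signals of 6.50, 6.52 and 6.46 in Foxo4_KO pools and 6.52, 6.51 and 6.50 in WT pools, so its signal did not check the genotype labels. Xist, the X-inactivation RNA of female cells, was at 10.25, 6.62 and 7.24 in Foxo4_KO pools and at 9.68, 6.63 and 6.61 in WT pools. Both untreated pools were thus high in Xist, and the other 4 lay between 6.61 and 7.24. The labelled tissue carried its markers: 11 of 15 colonocyte markers on the array were detected in all 6 pools, and the summed signal of all 15 was 32100 to 42900 in Foxo4_KO pools and 37400 to 43000 in WT pools. Summed signals of Paneth cell markers were 1600, 1480 and 32600 in Foxo4_KO pools and 790, 1420 and 10200 in WT pools. Those of ileal enterocyte markers were 2390, 2140 and 13800 in Foxo4_KO pools and 2100, 2580 and 8300 in WT pools. Both sums were thus highest in the TNBS pools, more so in Foxo4_KO, and the cause was not tested. Summed signals here and below include genes at background, each of which adds a floor. For lists with few detected genes the sum can be largely background, which draws pools together.

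Most genes did not keep 1 direction across the treatments. The difference had the same sign in all 3 pairs for 2071 genes (31.2%), being higher in Foxo4_KO mucosa for 764 (11.5%) and lower for 1307 (19.7%), and it changed sign for the other 4565 (68.8%). These same-sign differences were mostly small, with a median size of 0.20 (log2, 1.15-fold) for higher genes and 0.17 (1.12-fold) for lower genes. A mean difference of at least 2-fold was seen in 27 of the higher and 6 of the lower genes. The balance between higher and lower depended on how the arrays were scaled: with each array scaled to a common median, 573 genes were higher and 272 lower, so that higher genes made up 67.8% of the same-sign genes in place of 36.9%, and the difference of the median gene moved from -0.02 to 0.05. The genes described below are those with larger differences. Across the 6636 genes the pair differences correlated at r = 0.29 for untreated with ethanol, 0.19 for untreated with TNBS and 0.31 for ethanol with TNBS (Spearman rho 0.14, 0.09 and 0.18). Genes are not independent replicates, so these values are a description.

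**Figure D1:**
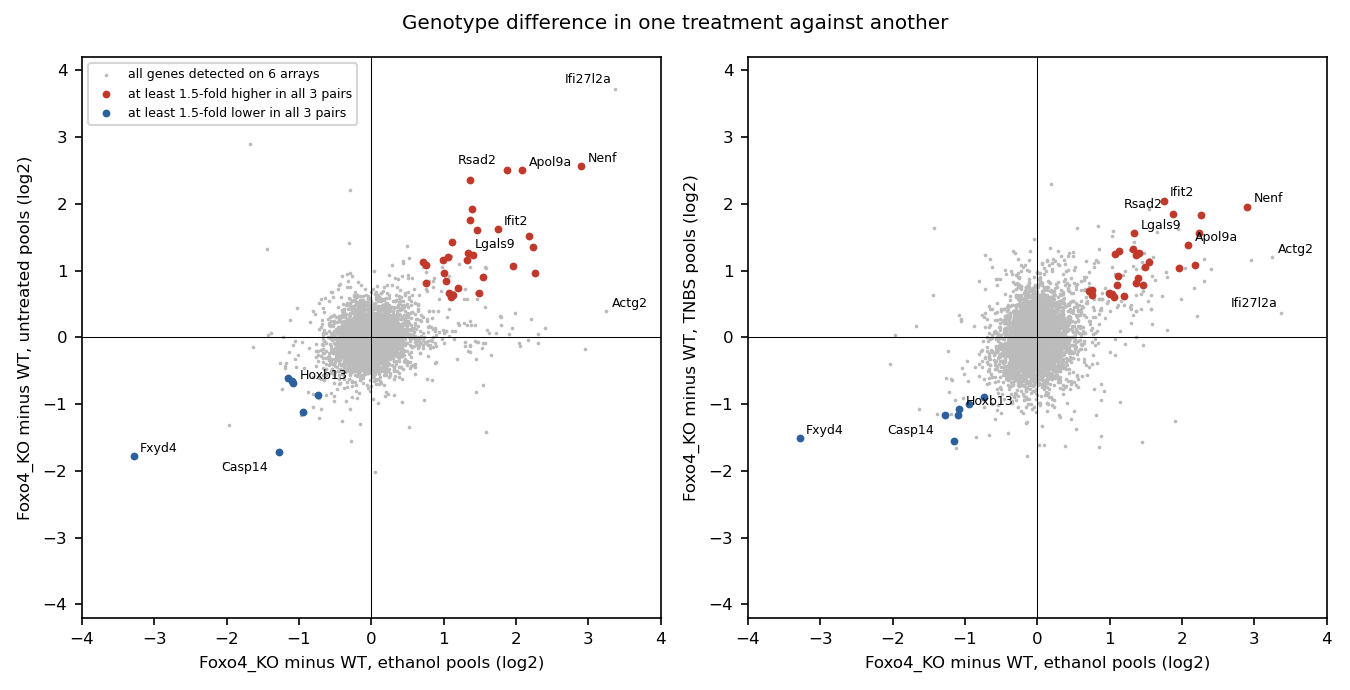
Foxo4_KO minus WT difference (log2) of each of 6636 genes in the ethanol pools (x axis) against that in the untreated pools (left, y axis) or the TNBS pools (right, y axis); red and blue mark genes at least 1.5-fold higher (29) or lower (7) in all 3 pairs. Most genes lie in a cloud around 0, and the marked genes extend from that cloud toward the upper right and the lower left.

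All 3 Foxo4_KO pools lay above all 3 WT pools in 312 genes (4.7%) and below all 3 in 546 (8.23%). Differences of at least 1.5-fold in each of the 3 pairs were found in 29 higher genes (0.437%) and 7 lower genes (0.105%), and of at least 2-fold in 11 higher (0.166%) and 2 lower (0.0301%). In limma's test of the mean pair difference, with treatment as a term and Benjamini-Hochberg adjustment over 6636 genes, 0 genes passed an adjusted p of 0.05, the lowest adjusted p being 0.104. At an unadjusted p under 0.05 that limma fit counted 261 higher (3.93%) and 356 lower genes (5.36%). With only 3 pairs an exact two-sided sign-flip permutation test cannot go below 0.25, and 3 pools against 3 cannot go below 0.1. Calls depended on how the spread was estimated and how the arrays were normalized: limma with a trended and robust variance prior called 21 higher and 3 lower genes (0.362% of all), and limma on the authors' normalized values called 23 higher and 5 lower (0.422%). Without the treatment term limma called 8 genes (0.121%), and with scaling to the median of detected probes, an alternative added after seeing the data, 138 (2.08%). The trended-prior and authors'-value lists shared 23 genes, which is 95.8% of the first and 82.1% of the second. A p that misses the threshold does not show that genotypes were alike, so each gene below is given with its values, and adjusted p is limma's throughout.

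Of the 29 genes at least 1.5-fold higher in every pair, 17 belonged to the lists of interferon-response, interferon-inducible GTPase and major histocompatibility complex (MHC) genes, and 0 of the 7 lower genes did. The MHC class I list also holds peptide-loading and proteasome genes. All these lists together held 52 of the 6636 compared genes (0.784%), so 17 of 52 were in the 1.5-fold higher class against 0.437% of all genes. The lists were chosen with earlier results of these data known, so this contrast is a description and was not tested. Among antiviral effectors, Rsad2, which makes a nucleotide that stalls viral polymerases, had normalized signals of 9.74, 9.21 and 9.28 (log2) in Foxo4_KO pools, against 7.24, 7.33 and 7.43 in WT pools. Genotypes did not overlap, and the mean difference was 2.07 ± 0.16 (SE, 3 pairs, 4.21-fold, adjusted p = 0.148). Here and below, SE is limma's moderated SE, which draws each gene's spread toward that of all genes. Ifit2, which binds viral RNA, stood at 8.34, 8.49 and 8.90 in Foxo4_KO pools against 6.72, 6.74 and 6.85 in WT pools. Its difference of 1.81 ± 0.11 (SE) had an adjusted p of 0.104, and all 3 WT pools sat in a band of 0.13 at the low end of the measured range. Oas2, a sensor of double-stranded RNA that activates RNase L, was at 8.58, 8.10 and 7.65 in Foxo4_KO pools against 6.65, 6.71 and 6.76 in WT pools (difference 1.40, adjusted p = 0.31). Oasl1, a related protein, differed by 1.29 and Ifitm3, a membrane protein that blocks viral entry, by 1.20 (adjusted p 0.305 each).

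Not every antiviral gene kept its difference under TNBS. Ifi27l2a, an interferon-inducible gene, was at 10.62 and 10.48 in the untreated and ethanol pools of Foxo4_KO mice but 8.61 in their TNBS pool, against 6.90, 7.12 and 8.25 in WT pools. Its pair differences were 3.72, 3.37 and 0.36, with a mean of 2.48 ± 0.73 (SE, adjusted p = 0.49). Irf7, the factor that amplifies interferon production, differed by 1.06, 1.37 and 0.00 in the untreated, ethanol and TNBS pairs. Bst2, which tethers virus particles, differed by 1.19, 0.52 and -0.12. Of 42 interferon-response genes with a probe 28 were detected in all pools, and 25 of these were higher in all 3 pairs against 11.5% of all genes, with 0 lower. The sign count takes a difference of any size, and so includes Irf7, whose TNBS difference was positive before rounding to 0.00. The list's median difference was 0.74 (all genes -0.02), and by pair it was 0.90 untreated, 0.74 ethanol and 0.40 TNBS. These pair medians come from single pools and their difference was not tested. The list's summed signal over all 42 genes was 24900, 25000 and 20200 in Foxo4_KO pools and 13700, 13600 and 14500 in WT pools. Another 14 genes of the list, Ifit1, Ifit3, Mx1 and Mx2 among them, missed detection on at least 1 array and were not compared.

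Interferon-inducible GTPases, which attack the vacuoles of intracellular microbes, were on the array with 13 genes, of which 7 were below background on every array. The 6 detected in all pools were each higher in all 3 pairs (all genes 11.5%), with a median of 0.90. Irgm2 was at 9.96, 9.94 and 9.60 in Foxo4_KO pools against 7.60, 8.57 and 8.37 in WT pools, a difference of 1.65 ± 0.25 (SE, adjusted p = 0.31). Igtp was at 8.72, 8.93 and 8.37 in Foxo4_KO pools against 6.96, 7.57 and 7.55 in WT pools (difference 1.31, adjusted p = 0.305). Both were lower in the untreated WT pool than in its treated WT counterparts, so the untreated pair gave the widest gap. Irgm1, a regulator of these GTPases, differed by 0.93 and Gbp3, a guanylate-binding protein, by 0.87.

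Promoter windows of these genes are shown because the element that interferon-activated factors bind can be read in them. From 250 bases before to 50 after the start listed for each gene by RefSeq (GRCm38.p6), the half-site GAAA followed, after any 2 bases, by a second GAAA was searched on both strands, where TTTC, any 2 bases and TTTC are the same element on the opposite strand. Of the 29 genes higher by 1.5-fold in every pair 20 had a window, and 8 of these (40.0%) held the element: Apol9a, Gbp3, Ifitm3, Igtp, Irgm1, Irgm2, Lgals9 and Rsad2. It was in 5.13% of windows of genes higher in all 3 pairs, 2.59% of those lower in all 3, 2.74% of the 5439 windows of all compared genes and 3.49% of all 27025 windows. Capitals mark the element, read 5′ to 3′ on each gene's strand.
Rsad2 (chr12:26456533-26456602, minus strand): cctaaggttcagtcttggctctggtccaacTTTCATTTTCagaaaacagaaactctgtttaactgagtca
Apol9a (chr15:77411094-77411169, minus strand): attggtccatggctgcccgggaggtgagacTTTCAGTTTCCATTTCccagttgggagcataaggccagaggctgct
Lgals9 (chr11:78984940-78985009, minus strand): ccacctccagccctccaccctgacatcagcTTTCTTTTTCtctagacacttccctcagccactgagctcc
Irgm2 (chr11:58214883-58214952, plus strand): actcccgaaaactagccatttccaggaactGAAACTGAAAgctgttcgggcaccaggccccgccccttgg
Igtp (chr11:58199492-58199555, plus strand): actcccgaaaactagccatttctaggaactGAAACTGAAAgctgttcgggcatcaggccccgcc
Irgm1 (chr11:48871421-48871480, minus strand): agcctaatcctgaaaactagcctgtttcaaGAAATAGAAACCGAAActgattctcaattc
Gbp3 (chr3:142559969-142560043, plus strand): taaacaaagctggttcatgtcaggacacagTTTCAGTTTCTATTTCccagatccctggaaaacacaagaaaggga
In Apol9a, Irgm1 and Gbp3 2 overlapping copies run together, and the Irgm2 and Igtp stretches were equal at 62 of 64 bases (96.9%). The FoxO-binding letters GTAAACA, searched in the same way, were in 3 of the 20 windows (15%: Dlk1, Gbp3 and Rsad2). They were in 4.17% of windows of genes higher in all 3 pairs, 3.34% of those lower in all 3 and 2.57% of those of all compared genes. A match is a run of letters and not a measured binding site. Since a gene's window was not part of the choice of genes but the genes were chosen by their difference, these shares are given without a test.

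Antigen-presentation genes had a median difference of 0.84 over the 5 genes of the MHC class II list detected in all pools. Over the 14 of the class I list, which also holds peptide-loading and proteasome genes, it was 0.20, against -0.02 over all genes. H2-Ab1, the beta chain of the class II molecule I-A, was at 9.07, 9.31 and 8.75 in Foxo4_KO pools against 7.71, 7.07 and 7.19 in WT pools (difference 1.72 ± 0.19 SE, adjusted p = 0.302). Cd74, the invariant chain that escorts class II molecules, was at 10.86, 11.24 and 10.49 in Foxo4_KO pools against 9.89, 8.97 and 8.66 in WT pools (difference 1.69, adjusted p = 0.311). Genotypes did not overlap in either gene, and in both the untreated pair gave the smallest gap. Of the 5 genes of the class II list 4 were higher in all 3 pairs (all genes 11.5%), with H2-DMb1, a peptide-loading chain, at 0.84, and H2-Ob had mixed signs. Ctss, the remaining higher gene, differed by only 0.04, 0.07 and 0.32. The class II chains H2-Aa, H2-Eb1 and H2-Ea were not detected on any array and were not compared. In the class I and peptide-loading list 6 of 14 genes were higher in all 3 pairs (all genes 11.5%), 0 were lower and 8 had mixed signs. The higher genes were H2-D1, B2m and the proteasome genes Psmb8, Psmb9, Psmb10 and Psme1. The heavy chains H2-K1, H2-Q6 and H2-Q7 had mixed signs. H2-D1, a class I heavy chain, differed by 0.46 and B2m, the class I light chain, by 0.44 (adjusted p 0.415 and 0.49). Immunoproteasome subunits replace catalytic subunits of the standard proteasome under interferon. Of these, Psmb8 was at 11.98, 11.82 and 11.72 in Foxo4_KO pools against 10.55, 10.71 and 10.80 in WT pools. That difference of 1.15 ± 0.12 (SE, adjusted p = 0.291) compares with 0.96 for Psmb9 and 0.17 for Psmb10, the third such subunit (adjusted p = 0.57). The subunits that Psmb8 and Psmb9 replace, Psmb5 and Psmb6, had pair differences of -0.16, 0.37 and 0.29 and of 0.17, 0.07 and 0.06. Over the proteasome and ubiquitin list 9 of 25 genes were higher in all 3 pairs (all genes 11.5%) and 0 lower, at a median of 0.07, and its leading gene was Uba7 (0.53), which activates the interferon-induced ubiquitin-like protein ISG15.

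Some markers of macrophages, of T and NK cells and of B and plasma cells were also higher in all 3 pairs, and their part in the differences was not tested. More or fewer cells of a type and more or less RNA per cell cannot be told apart in pooled tissue. Of 7 monocyte and macrophage markers detected in all pools 6 were higher in all 3 pairs (all genes 11.5%), and the summed signal of all 18 on the array was 3340 to 3940 in Foxo4_KO pools and 2230 to 2560 in WT pools. Laptm5, a lysosomal protein of leukocytes, differed by 1.36, and C1qa, a complement chain made by macrophages, by 0.35, while Itgam, Fcgr1, Cd163 and Tyrobp were below background on all 6 arrays. Among 4 detected markers of T and NK cells, 3 had a positive difference in every pair (all genes 11.5%): Coro1a, an actin regulator of leukocytes, by 1.60, and the T cell receptor chains Cd3d by 0.45 and Cd3e by 0.30. The summed signal of the 17 T and NK markers was 3040 to 3380 in Foxo4_KO pools and 2420 to 2720 in WT pools, with Cd4, Ptprc, Gzma and Gzmb below background everywhere. Lyz2, a lysozyme of myeloid cells, differed by 0.27, 2.21 and 0.32, and its mean of 0.93 was 0.30 without the ethanol pair. Of 4 B and plasma cell markers detected in all pools 2 were higher in all 3 pairs (all genes 11.5%) and 2 had mixed signs. Mzb1, of plasma cells, differed by 1.01 and Cd79b, of the B cell receptor, by 0.95. The summed signal of the 12 B and plasma cell markers was 4430 to 4730 in Foxo4_KO pools and 3750 to 4360 in WT pools, with Pax5, Cd22 and Jchain below background everywhere. Of the dendritic cell markers 2 were detected in all pools, 1 of them higher in all 3 pairs (all genes 11.5%), and the summed signal of the 11 on the array was 2540, 2580 and 2520 in Foxo4_KO pools and 2980, 2220 and 2240 in WT pools. Both mast cell markers detected in all pools had mixed signs, with a median of 0.01. No neutrophil marker was detected in all pools; the summed signal of the 14 on the array was 1060, 1070 and 4880 in Foxo4_KO pools and 1060, 1170 and 1220 in WT pools.

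The remaining genes at least 1.5-fold higher in every pair were of varied kinds. Nenf, which encodes the secreted neurotrophic protein neudesin, had the largest of these differences: 10.58, 10.58 and 9.94 in Foxo4_KO pools against 8.01, 7.68 and 7.98 in WT pools. The mean was 2.48 ± 0.20 (SE, 5.57-fold, adjusted p = 0.159), and the lowest Foxo4_KO pool lay 1.93 above the highest WT pool. Apol9a, an apolipoprotein L family member, was at 9.46, 9.05 and 8.29 in Foxo4_KO pools against 6.96, 6.95 and 6.91 in WT pools (difference 1.99, adjusted p = 0.302); it has a close paralog, Apol9b, and whether the probe separates the copies was not tested. Dlk1, Basp1 and Lgals9 shared the lowest adjusted p with Ifit2. Dlk1, a Notch-like membrane protein of progenitor cells, was at 8.33, 8.52 and 8.41 in Foxo4_KO pools against 7.10, 7.11 and 7.14 in WT pools (difference 1.30 ± 0.07 SE, adjusted p = 0.104). Basp1, a membrane-associated signalling protein, was at 8.56, 8.74 and 9.62 in Foxo4_KO pools against 7.40, 7.41 and 8.30 in WT pools. Its difference was 1.27 ± 0.07 (SE, adjusted p = 0.104), and its signal was highest under TNBS in both genotypes. Lgals9, the secreted lectin galectin-9, was at 8.91, 8.99 and 9.26 in Foxo4_KO pools against 7.64, 7.65 and 7.69 in WT pools (difference 1.39 ± 0.09 SE, adjusted p = 0.104).

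Where a gene had a second probe on all 6 arrays, the sizes often differed. For Dlk1 the second probe gave differences of 0.21, 0.57 and 0.49 in the untreated, ethanol and TNBS pairs. For Lgals9 the other probes gave 0.57, 1.17 and -0.04 and 0.75, 1.24 and 0.45, so the probes disagreed in the TNBS pair. H2-Ab1's second probe gave 0.79, 2.18 and 0.47, and the other probes of Psmb8 gave 1.03, 1.66 and 0.55 and 0.30, 0.52 and 0.11. In 3 of these 4 genes every further probe was higher in all 3 pairs, the exception being the Lgals9 probe under TNBS. Further probes of Cd74 and Coro1a, detected on 4 and on 4 or fewer arrays, gave differences of at most 0.65 and 0.47. Nenf had no second probe among those compared.

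**Figure D2:**
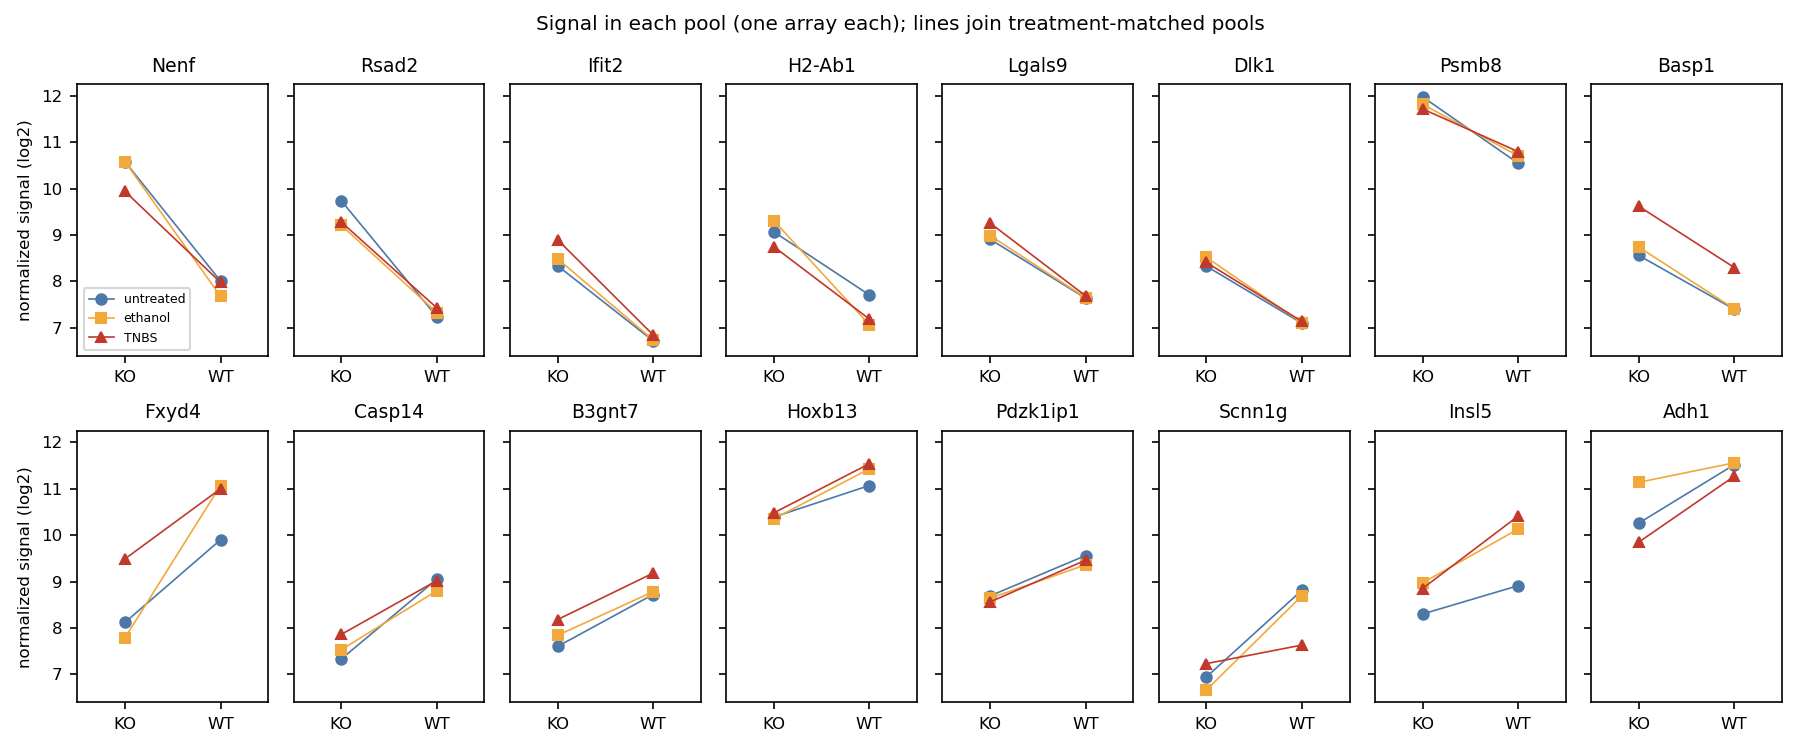
Normalized signal (log2, y axis) of 16 genes in each pool, Foxo4_KO left and WT right, with marker shape and colour for treatment and a line joining treatment-matched pools. In the upper 8 genes every Foxo4_KO point lies above the WT point joined to it, in the lower 8 every one lies below, and Dlk1, Lgals9 and Pdzk1ip1 have nearly parallel lines.

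Of 18 genes of sodium transport detected in all pools, 8 were lower in all 3 pairs against 19.7% of all genes, 0 were higher and 10 had mixed signs, with a median of -0.27. The distal colon takes up sodium through the epithelial sodium channel under control of the hormone aldosterone, with the sodium pump driving uptake. Fxyd4, a pump regulator induced by aldosterone, was at 8.12, 7.79 and 9.49 in Foxo4_KO pools against 9.90, 11.07 and 11 in WT pools. Genotypes did not overlap, and the mean difference of -2.19 ± 0.38 (SE, 0.219 of the WT signal, adjusted p = 0.349) was the lowest of any gene compared. Its second probe gave -0.79, -1.20 and -0.99. The channel's gamma subunit Scnn1g was at 6.94, 6.66 and 7.23 in Foxo4_KO pools against 8.81, 8.69 and 7.63 in WT pools, so the gap was wide in the untreated and ethanol pairs and 0.40 under TNBS (mean -1.43, adjusted p = 0.484). The alpha subunit Scnn1a differed by -0.41, -0.39 and -0.62 (mean -0.47, adjusted p = 0.348). The beta subunit Scnn1b differed by -1.32 and -1.96 in the untreated and ethanol pairs but by 0.03 under TNBS, so it did not share a sign in all pairs. Hsd11b2, which keeps glucocorticoids off the aldosterone receptor, differed by -0.57 (adjusted p = 0.329), and its second probe by -1.21, -0.64 and -1.18. Atp12a, the colonic proton pump that exchanges potassium, was at 9.93, 8.69 and 9.22 in Foxo4_KO pools against 10.07, 10.32 and 10.29 in WT pools (mean -0.95, adjusted p = 0.5). The transporters and channels Slc26a3, Aqp8 and Slc9a3 had mixed signs, and the mean of Slc9a3 was 0.10.

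The other genes at least 1.5-fold lower in every pair were Casp14, Insl5, B3gnt7, the unnamed gene model Gm9926, Hoxb13 and Pdzk1ip1. Casp14, a caspase of keratinising epithelium, was at 7.33, 7.53 and 7.86 in Foxo4_KO pools against 9.05, 8.80 and 9.02 in WT pools (difference -1.39 ± 0.13 SE, adjusted p = 0.236). Over the other 14 squamous epithelium markers on the array the summed signal was 1200, 1230 and 1320 in Foxo4_KO pools and 1190, 1240 and 1530 in WT pools. These sums were close in the untreated and ethanol pairs, but markers at background add a floor that makes them alike. Of the 14 markers, 2 were detected in all pools, both with mixed signs, and Krt5, Krt6a, Ivl and Trp63 were below background on all 6 arrays. B3gnt7, which extends sulphated glycans, was at 7.60, 7.84 and 8.18 in Foxo4_KO pools against 8.72, 8.78 and 9.18 in WT pools (difference -1.02 ± 0.07 SE, adjusted p = 0.142). Hoxb13, the homeobox gene of the most posterior body segments, was at 10.39, 10.35 and 10.48 in Foxo4_KO pools against 11.07, 11.43 and 11.54 in WT pools (difference -0.94 ± 0.11 SE, adjusted p = 0.302). Foxo4_KO pools spanned 0.13 in Hoxb13 and the lowest WT pool lay 0.59 above the highest of them. Pdzk1ip1, a small membrane protein that binds PDZ-domain scaffolds, was at 8.69, 8.64 and 8.56 in Foxo4_KO pools against 9.56, 9.36 and 9.46 in WT pools (difference -0.83 ± 0.07 SE, adjusted p = 0.183). Further probes of B3gnt7 and Hoxb13 were below background on every array and gave no second measure.

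Of 6 enteroendocrine markers detected in all pools, the hormone genes Insl5, Pyy and Gcg were lower in all 3 pairs (all genes 19.7%) and 3 had mixed signs. Insl5, a peptide of colonic L cells, was at 8.30, 8.97 and 8.85 in Foxo4_KO pools against 8.91, 10.13 and 10.41 in WT pools. Its pair differences were -0.61, -1.15 and -1.56, and the untreated WT pool lay within the Foxo4_KO range (mean -1.11, adjusted p = 0.351). Pyy, the satiety peptide YY of the same cells, differed by -0.50 and Gcg, which encodes the glucagon-like peptides, by -0.46 (adjusted p 0.452 and 0.49). Chga, the general granule protein of these cells, differed by -0.09, 0.01 and -0.06. The summed signal of the 10 markers was 6310, 6620 and 6520 in Foxo4_KO pools and 6390, 8570 and 9740 in WT pools, so the sums were close in the untreated pair and apart in the treated pairs. Ppy, pancreatic polypeptide, differed by -0.77.

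Among metabolic genes, Adh1, the class I alcohol dehydrogenase, was at 10.26, 11.14 and 9.85 in Foxo4_KO pools against 11.52, 11.56 and 11.27 in WT pools (difference -1.03, adjusted p = 0.417). Cyp2d10, a cytochrome P450, differed by -0.92 and Kyat1, which processes kynurenine, by -0.88. Over the xenobiotic metabolism list 6 of 27 genes were lower in all 3 pairs (22.2%, all genes 19.7%) and 2 higher, with a median of -0.08. The glycolysis and hypoxia list had 6 of 18 genes lower in all 3 pairs (33.3%, all genes 19.7%) and 0 higher at a median of -0.09. The members with the lowest p were Pdk1, which shuts pyruvate out of the mitochondrion (-0.48), and Ankrd37, a hypoxia-induced gene (-0.53; adjusted p 0.311 and 0.355). Cox15, a heme A synthase of the respiratory chain, differed by -0.53 ± 0.07 (SE) with pools at 7.92, 7.86 and 7.82 in Foxo4_KO against 8.45, 8.44 and 8.29 in WT. Over the oxidative phosphorylation list 5 of 49 genes were higher in all 3 pairs and 6 lower (10.2% and 12.2%, all genes 11.5% and 19.7%). In the clock list 3 of 12 genes were lower in all 3 pairs (25%, near the 19.7% of all genes) and 0 higher. Clock, a core factor of the circadian oscillator, differed by -0.39. Dbp, a clock output gene, differed by -1.35 in the untreated pair but by 0.52 and -0.18 in the others.

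Epithelial secretory genes had smaller differences. Of 8 goblet cell markers 4 were lower in all 3 pairs (all genes 19.7%), yet Muc2, the main secreted mucin, differed by -0.02, 0.00 and 0.00. Wfdc2, a secreted protease inhibitor, was at 12.82, 12.86 and 13.01 in Foxo4_KO pools against 13.19, 13.41 and 13.43 in WT pools (difference -0.45, adjusted p = 0.329). Lypd8, which keeps flagellated bacteria off the colonic epithelium, differed by -0.41 (adjusted p = 0.387). Of the cell cycle list 3 of 25 were higher in all 3 pairs (12%, near the 11.5% of all genes) and 2 lower.

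FoxO family members and known FoxO target genes differed little as a group. Foxo1 was at 7.19, 7.26 and 7.07 in Foxo4_KO pools against 7.21, 7.14 and 7.05 in WT pools, and Foxo3 was at 7.0, 6.98 and 6.88 in Foxo4_KO pools against 6.90, 6.82 and 6.88 in WT pools. The differences were 0.04 ± 0.07 and 0.09 ± 0.07 (SE; adjusted p 0.903 and 0.752), the genotypes overlapped, and with scaling to the median of detected probes the Foxo1 difference was -0.02. Of 15 family members and targets detected in all pools 1 was higher in all 3 pairs and 5 lower (33.3%, all genes 19.7%), at a median of 0.01 that was -0.02 with that scaling. Gabarapl1, an autophagy gene, differed by -0.33 and Cdkn1a, which encodes the cell cycle inhibitor p21, by -0.31 (adjusted p 0.412 and 0.516). Sod2, the mitochondrial superoxide dismutase, differed by -0.07, -0.03 and -0.07, and its mean was 0.04 with median scaling over all probes. Of 12 genes near Foxo4 on the X chromosome 4 were lower in all 3 pairs and 1 higher (33.3% and 8.33%, all genes 19.7% and 11.5%), with Pdzd11 at -0.40 and Med12, a subunit of the Mediator complex, at -0.36.

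NF-κB genes, which FOXO4 has been described to restrain, were close to 0 in 2 pairs: the list medians were -0.05, 0.00 and 0.26 in the untreated, ethanol and TNBS pairs, and 3 of 12 genes were higher in all 3 pairs (25%, all genes 11.5%) and 0 lower. Of 7 complement genes 6 were higher in all 3 pairs (all genes 11.5%) at a median of 0.31, 3 of them chains of C1q already counted among macrophage markers, with C2, a component of the classical pathway, at 0.60 and Serping1, which inhibits its first step, at 0.64.

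Of smooth muscle markers 3 of 9 were higher in all 3 pairs (33.3%, all genes 11.5%), as were 4 of 9 fibroblast (44.4%) and 3 of 8 endothelial markers (37.5%), and 0 of these were lower. Their pair medians were near 0 in the untreated pair and higher in the treated pairs, a difference that rests on single pools and was not tested. Actg2, the gamma actin of gut smooth muscle, was at 9.17, 12.99 and 12.90 in Foxo4_KO pools against 8.78, 9.75 and 11.70 in WT pools, so its differences were 0.39, 3.24 and 1.20 (mean 1.61, adjusted p = 0.531). Over the 9 smooth muscle markers detected in all pools the median difference was -0.07 untreated, 2.31 under ethanol and 1.03 under TNBS. The summed signal of all 15 on the array was 5770, 25800 and 21100 in Foxo4_KO pools and 5560, 5760 and 11200 in WT pools, while Cnn1, Lmod1 and Synpo2 were below background on all 6 arrays. Fibroblast markers had medians of 0.01, 1.04 and 0.86 and endothelial markers of 0.00, 0.38 and 0.44. In the untreated pair, where smooth muscle and fibroblast medians were near 0, the interferon-response median was 0.90 and that of the sodium list was -0.32. Leukocyte marker medians in that pair were 0.27 for macrophages, 0.41 for T and NK cells and 0.61 for B and plasma cells. Each value comes from 1 pool per genotype. The part of any of these markers in the differences was not tested in any pair.

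**Figure D3:**
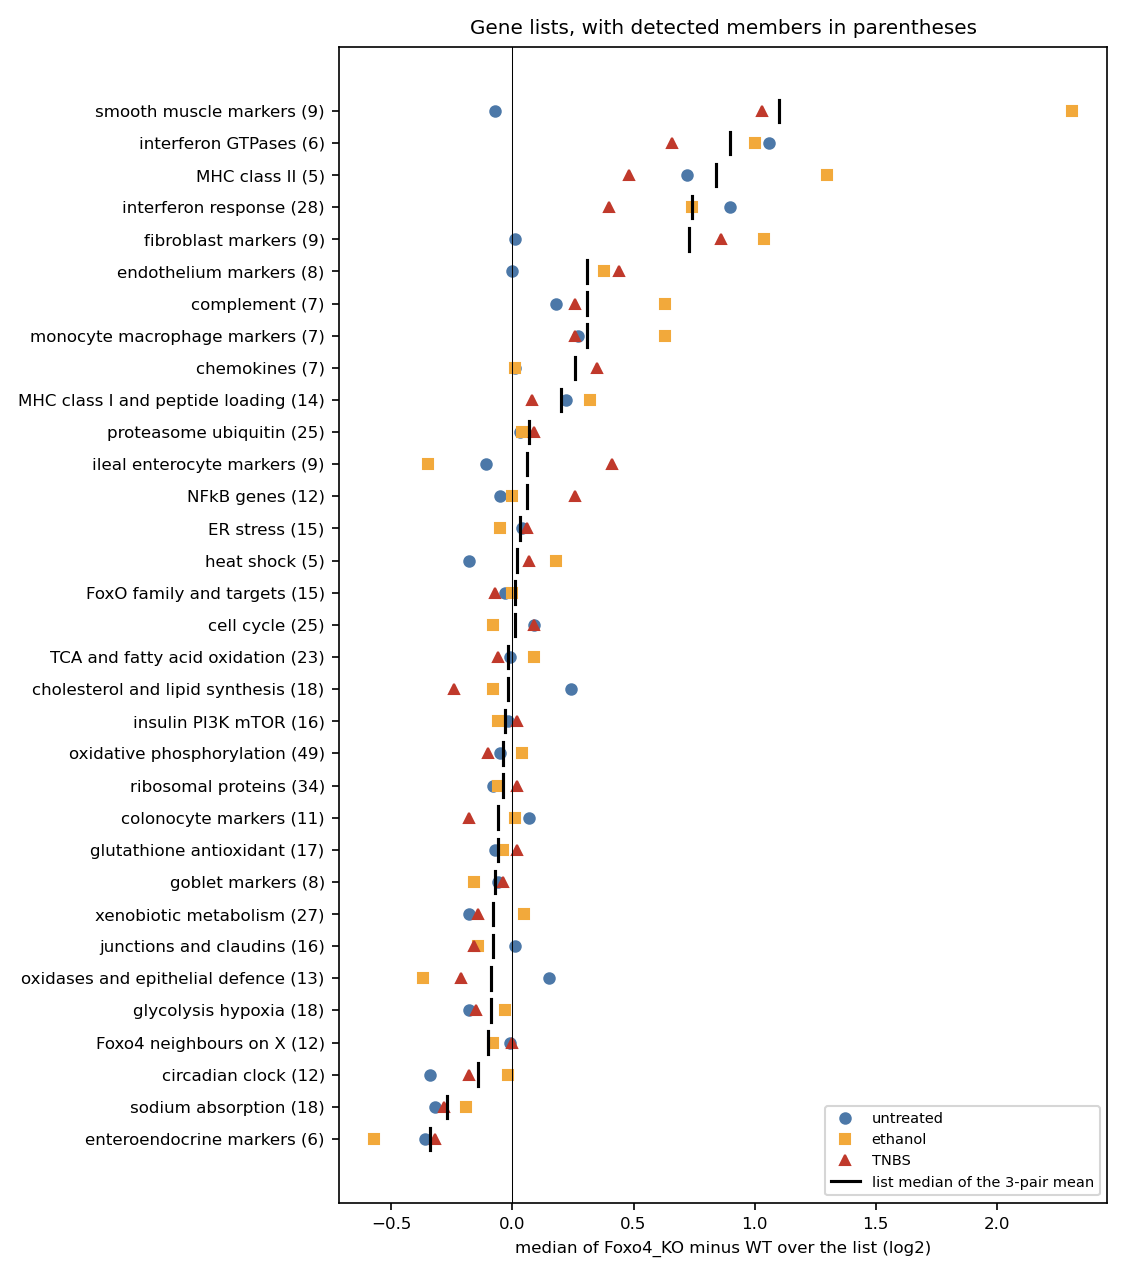
Median Foxo4_KO minus WT difference (log2, x axis) over each gene list with at least 5 members detected on all 6 arrays, for the untreated (blue circles), ethanol (orange squares) and TNBS (red triangles) pairs, with a black bar for the list's median of the 3-pair means. Interferon, GTPase and MHC class II lists lie right of 0 in all 3 pairs, sodium absorption and enteroendocrine lists lie left of 0 in all 3, and the smooth muscle list runs from -0.07 to 2.31.

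The 1.5-fold threshold was a line through a continuum. Just inside it were Psmb9 and Selplg, each with a smallest pair difference of 0.60, and Insl5, with one of 0.61. Just outside were Mfge8, Cytip and Rapgefl1, each at 0.58.

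**Figure D4:**
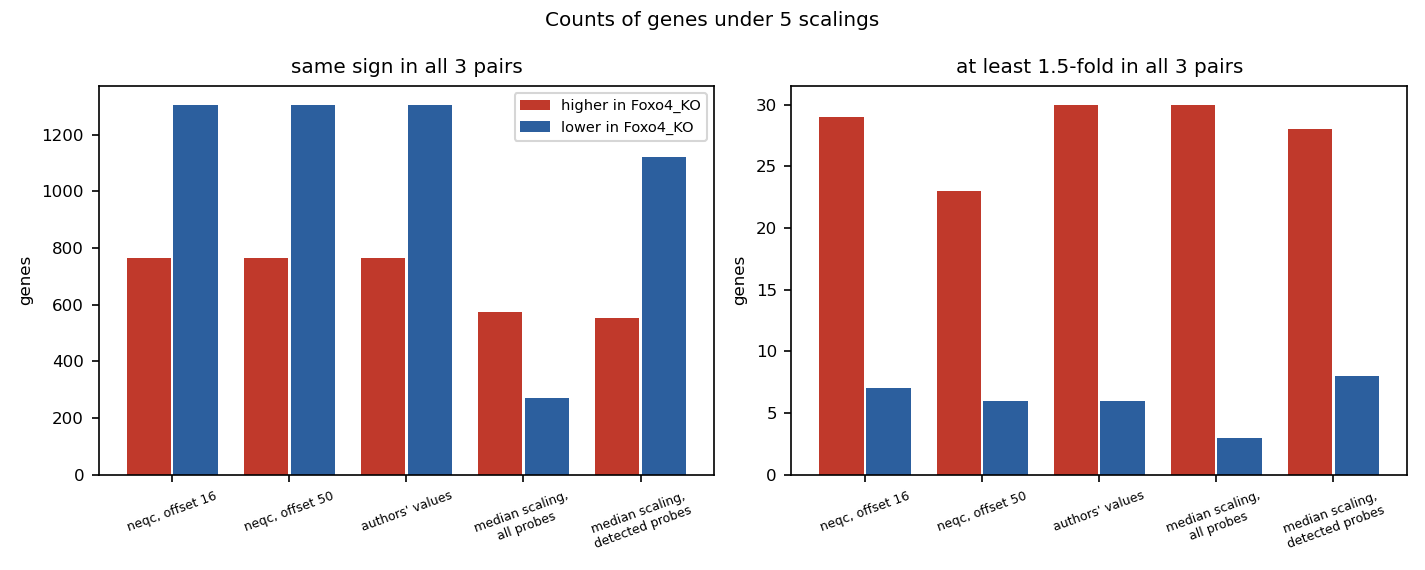
Number of genes (y axis) with the same sign in all 3 pairs (left) and at least 1.5-fold apart in all 3 pairs (right), higher (red) or lower (blue) in Foxo4_KO, under 5 ways of scaling the arrays (x axis). The same-sign counts turn from 764 higher and 1307 lower to 573 higher and 272 lower with median scaling, while the 1.5-fold higher counts stay between 23 and 30.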

How the data were processed

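The members and gene lists were chosen with earlier results of these data known. Per the file headers, the deposited unnormalized table holds each probe's mean bead intensity and a detection p-value; that column rises with signal and was read as 1 minus p. The authors' deposited second table holds quantile-normalized intensity without background correction, as its values show, and was used as an alternative. The tables were joined by signal profile (99.88% of 46628 targets; 98.2% of targets with an Entrez number matched it). RNA was cleaned and labelled with biotin per the labels; scanner software: not given in the sources used here. Probes with 1 gene symbol in the platform annotation were used (29943; none 16619, several 10).

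From these signals neqc (limma 3.58.1, R 4.3.3) subtracted background, quantile normalized the arrays and gave log2 values, with an offset of 16 that shrinks differences of dim genes. Each gene detected at p under 0.01 on all 6 arrays was represented by its brightest probe; 1345 genes had several. limma's lmFit and eBayes fitted treatment and genotype, leaving 2 residual degrees of freedom, with Benjamini-Hochberg adjustment over 6636 genes. The number of arrays limits the precision. On simulated data with 200 changed genes, 97.3% of log2 changes of 1 were called, with 4.8% of calls false. Many changed genes ease that threshold. Each changed gene was given the same change in every treatment, with normal noise from its moderated spread. The simulation thus held no treatment-dependent differences. It does not give the share of real changes that these arrays would call, and in the data 0 genes were called. Alternatives were the authors' values, 2 median scalings (1 added after seeing the data), an offset of 50, other detection filters, every probe, each pair left out, a trended and robust prior, and no treatment term. Named genes were the 15 highest and 15 lowest with 1 sign, the 10 per direction with the widest smallest pair or the lowest p, up to 4 of each of 46 lists, FoxO and sex-linked genes; gene models without a name were skipped, and Scnn1a, Scnn1b, Muc2, Chga, Dbp, Psmb5, Psmb6, Psmb10, Irf7, Bst2, H2-Ob, Sod2, Ifitm3, Oasl1, Aqp8, Slc26a3, Slc9a3, Selplg, Mfge8, Cytip, Gm9926 and Hox genes other than Hoxb13 were named after their values were seen. Python 3.11.15, pandas 2.3.3 and matplotlib 3.10.9 made tables and figures.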

Additional observations from a re-analysis of the deposited data

Results flagged for a closer look

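Of 33 gene lists with at least 5 detected members, 2 were flagged. Their median difference between Foxo4_KO and WT pools reached at least 0.2 (log2) in opposite directions in separate treatments. Lists whose medians changed sign without reaching that size in both directions were not flagged. Cholesterol and lipid synthesis genes had a median difference of 0.24 in the untreated pair, -0.08 in the ethanol pair and -0.24 in the TNBS pair. Ileal enterocyte markers had a median difference of -0.11 in the untreated pair, -0.35 in the ethanol pair and 0.41 in the TNBS pair. Each value comes from 1 pool per genotype, and the difference between treatments was not tested.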

How the results depend on the processing

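Each count was repeated under other settings. Genes called for genotype by limma at an adjusted p of 0.05 (0 higher, 0 lower) became 23 higher and 5 lower with the authors' normalized values, 21 and 3 with a trended and robust variance prior, 7 and 1 with no treatment term, and 95 and 43 with median scaling over probes detected on all arrays, which was added after seeing the data; the cause was not tested. Genes at an unadjusted p under 0.05 became 123 higher and 37 lower with median scaling over all probes. Genes with 1 sign in all 3 pairs became 1186 higher with detection on at least 1 array and 272 lower with median scaling. Genes 1.5-fold lower in all pairs became 3 with median scaling and 11 with every probe kept apart, and those 2-fold lower became 1 with the authors' values and 1 with median scaling. Leaving out a pair leaves only 2 pairs to agree and so raises these counts. Without the untreated, ethanol or TNBS pair, same-sign genes were 1482, 1436 and 1358 higher and 2268, 1985 and 2238 lower. Genes 1.5-fold apart were then 89, 47 and 51 higher and 29, 25 and 24 lower. Genes 2-fold higher were 37 without the untreated pair and 22 without the TNBS pair, and those 2-fold lower were 9, 4 and 4. The differences of 113 named genes were followed through 12 settings (1356 comparisons). With the trended prior, no treatment term or every probe kept apart, each gene's difference is the same by construction, so no sign could change. The other detection filters use the same signals and could change a sign only through another probe. Of the 113 genes, 101 never changed sign and 17 comparisons of the others did, all of genes near 0 or of mixed sign. These were Foxo1 (-0.02 with median scaling over detected probes), Chga (0.00), H2-Ob (0.01) and Sod2 (0.04) with median scaling, Hoxb9 (-0.02) and Muc2 (0.02) with the authors' values, Dbp (0.17), Hoxa7 (-0.24), Hoxb9 (-0.03) and Muc2 (0.00) without the untreated pair, Hoxa7 (-0.03) without the ethanol pair, and Aqp8 (0.49), H2-Ob (0.05), Hoxb5 (-0.17), Hoxb9 (-0.11), Slc26a3 (0.04) and Slc9a3 (-0.27) without the TNBS pair. The interferon-response median stayed between 0.53 and 0.84 and the sodium list's between -0.42 and -0.22. The matching by treatment is a term of the limma model, which makes it a paired analysis by treatment; the labels give no replicate numbers shared between groups to block on. The SE of a gene is limma's moderated SE of the mean of 3 pairs, not the plain SE of its own 3 differences. It holds treatment-dependent differences as well as noise. For genes near background the offset shrinks differences, so their sizes are uncertain, and genes lost in 1 genotype are beyond what these arrays measure here.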

Other observations

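Hox genes, which mark position along the gut, were looked up after the value of Hoxb13 had been seen. Of 12 Hox genes detected on all 6 arrays, Hoxb13 differed by -0.94 between Foxo4_KO and WT pools, while Hoxb6 differed by -0.14, Hoxa5 by -0.20, Hoxa7 by 0.03, Hoxb9 by 0.01, Hoxb5 by 0.04 and Hoxa3 by -0.05. Hoxb13 and Hoxb6 were lower in all 3 pairs, and the signs of the others were mixed. Sycn, syncollin, was at 12.38, 12.45 and 11.92 in Foxo4_KO pools against 13.68, 12.61 and 12.66 in WT pools (untreated, ethanol, TNBS), a mean of -0.74. Anpep, a brush-border aminopeptidase, differed by 0.94 and Fabp6, the ileal bile acid binding protein, by 0.76, with both genes brightest in the TNBS pools of either genotype. Other ileal enterocyte markers went the other way, with Rbp2 at -0.47 and Apob at -0.41. Of 9 such markers detected in all pools, 3 were higher in all 3 pairs and 3 lower (33.3% each, all genes 11.5% and 19.7%).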
